A study of Mus musculus with 2 samples.

Results

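The miR-29 family of the mouse comprises 4 microRNA (miRNA) genes, Mir29a, Mir29b-1, Mir29b-2 and Mir29c, which lie as 2 genomic pairs. They were taken by gene symbol, and all 4 were among the 1973 miRNA genes measured. The tissue was the neural tube of newborn B6NCrl mice (postnatal day 0), profiled by sequencing RNA shorter than 30 bases. There was 1 group of 2 libraries, each from the single neural tube of 1 pup; pup 1 and pup 2 came from 1 dam, and their sex was not collected. No treatment, mutant or other age was part of the data, so the values describe levels at birth and the difference between 2 littermates.

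A miRNA gene is transcribed into a hairpin precursor, from which a short duplex is cut; its strands are called the 5p and the 3p arm. The arm loaded into an Argonaute protein pairs with messenger RNAs mainly through its seed, the bases near its 5′ end, and lowers their output. For miR-29 the 3p arm is the guide. Its known targets include collagens, elastin and DNA methyltransferases, and in maturing neurons genes that promote cell death. The family is known for low levels in the embryonic brain and higher levels in the mature brain.

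The 3 mature 3p arms are shown because the seed defines the family and the remaining bases decide which gene a read can be assigned to. They are written 5′ to 3′ with the seed (bases 2 to 8) in capitals, from the RefSeq annotation of GRCm38.p6, in which all 4 genes were found.
miR-29a-3p: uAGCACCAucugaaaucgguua
miR-29b-3p: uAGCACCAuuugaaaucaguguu
miR-29c-3p: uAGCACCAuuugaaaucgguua
Of 1679 mature miRNAs in that table, these 3 alone carried AGCACCA at bases 2 to 8. With positions counted from 1 at the 5′ end, miR-29a-3p and miR-29c-3p differed at a single base (C10U). Against miR-29c-3p, miR-29b-3p differed at 3 of the first 22 bases (A18G, G21U and U22A). It is also 1 base longer. A read that starts at the first base of the arm is therefore told apart from the other miR-29 precursors from a length of 10 bases for miR-29a-3p and 18 bases for miR-29c-3p.

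No such length exists for miR-29b-3p, because Mir29b-1 and Mir29b-2 both encode all 23 bases of it. Their precursors are shown with the longest stretch they share, 25 bases, in capitals; it holds the whole 3p arm. Mir29b-1 lies at chr6:31063023-31063093 on the minus strand and Mir29b-2 at chr1:195037040-195037120 on the plus strand (GRCm38).
Mir29b-1: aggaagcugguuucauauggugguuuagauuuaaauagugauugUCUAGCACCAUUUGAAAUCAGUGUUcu
Mir29b-2: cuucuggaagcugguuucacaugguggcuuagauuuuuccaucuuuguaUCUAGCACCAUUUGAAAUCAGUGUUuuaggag
The 5p arms of these genes do differ. Aligned on their common bases they had 2 differences over 21 bases (U11C and U19C, counted on miR-29b-1-5p), shown in capitals.
miR-29b-1-5p: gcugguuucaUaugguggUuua
miR-29b-2-5p: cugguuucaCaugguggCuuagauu
The deposited counts are per gene and hold uniquely placed reads only. Reads that fitted several places, 2268506 in pup 1 and 2555735 in pup 2 over all sequences, were counted to no gene. A complete miR-29b-3p read fits both loci, so the values of Mir29b-1 and Mir29b-2 can hold it only where a read runs past the shared stretch. They are not levels of miR-29b. The arms behind each count are not told apart in the tables.

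**Figure D1:**
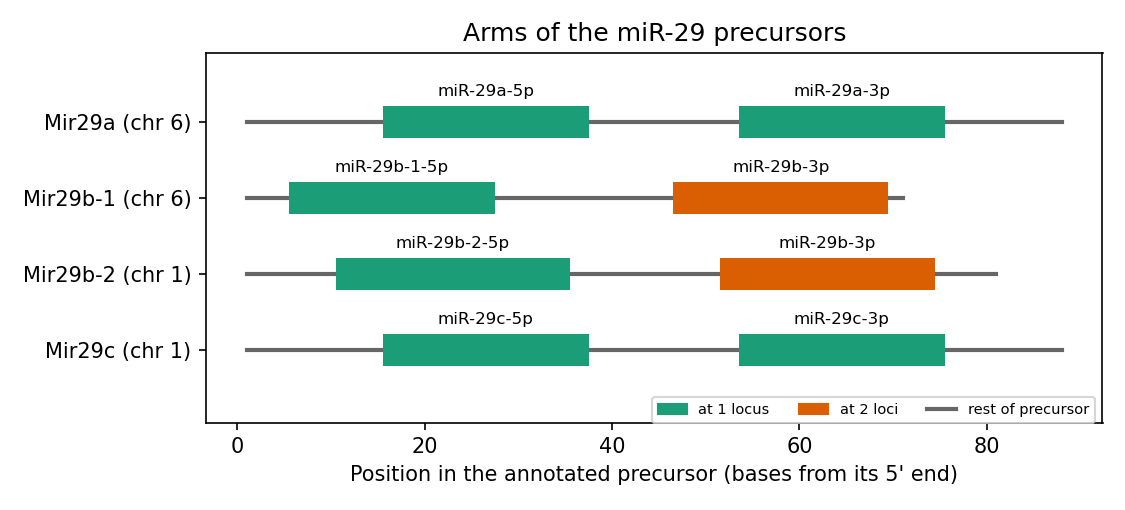
The annotated precursors of the 4 miR-29 genes, drawn to scale in bases from the 5′ end, with the mature arms as boxes. The arms found at 1 annotated locus are green; miR-29b-3p, found at 2 loci, is orange in both Mir29b-1 and Mir29b-2.

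The pair on chromosome 6 consists of Mir29a (ENSMUSG00000065610, bases 31062660 to 31062747) and Mir29b-1 (ENSMUSG00000065604), both on the minus strand with 275 bases between them. In GENCODE M21 no other gene overlapped Mir29a, and the long noncoding gene Gm27019 overlapped Mir29b-1 by 2 bases. The pair on chromosome 1 consists of Mir29b-2 (ENSMUSG00000065412) and Mir29c (ENSMUSG00000065548, bases 195037547 to 195037634), on the plus strand with 426 bases between them. Both lie inside an exon of 1 of 4 annotated transcripts of the noncoding gene A330023F24Rik. On the opposite strand both also lie inside an exon of 1 of 4 transcripts of Cd46, a complement regulator of the cell surface. The precursors of Mir29a and Mir29c have 88 bases each, against 71 for Mir29b-1 and 81 for Mir29b-2.

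The libraries held 3216453 own-strand counts in pup 1 and 3660693 in pup 2. Levels are given as CPM, the own-strand count scaled to a library total of 1000000; a single count (1) was worth 0.311 CPM in pup 1 and, at the larger depth, 0.273 CPM in pup 2. Intervals are 95% intervals, exact Poisson for a count and exact binomial (Clopper-Pearson) for a share. By their formula they hold counting error alone and treat every read as independent. No molecular identifiers are mentioned for these libraries, so copied reads cannot be told apart and the intervals can be too narrow. As a check of the label, the 9 measured miRNA genes of the neuronal marker list summed to 20823 CPM in pup 1 and 23940 CPM in pup 2. Most of this was Mir137, at 15026.5 and 17125.2 CPM. None was at 0, but only 6 of the 9 reached 10 counts in both pups. Mir124a-1, Mir124a-2, Mir124a-3 and Mir9-2 had means of only 9.94, 1.03, 2.45 and 1.42 CPM. Other tissues were present as well: endothelial Mir126a stood at 27838 and 26007 CPM, and the 7 mesenchymal genes summed to 10738 and 11451 CPM with none at 0. The 5 measured striated muscle genes summed to 70.6 and 105 CPM, with Mir1a-1, Mir133a-1 and Mir133a-2 at 0 in both pups. Several gene copies make miR-1 and miR-133a, and reads that fit more than 1 copy were not counted, so these zeros do not show that the miRNAs were absent. Several copies also make miR-124 and miR-9, so the low counts of the Mir124a genes and Mir9-2 are not levels of these miRNAs. In whole tissue, fewer cells of a type and less RNA per cell cannot be told apart.

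Mir29a had the highest counts of the members. It had 1515 counts in pup 1 and 1875 in pup 2, or 471 CPM (interval 448 to 495) and 512 CPM (489 to 536), with a mean of 492 CPM ± 29.1 (SD, n = 2). The intervals of the pups overlapped, with pup 2 the higher. Among all genes Mir29a ranked 123 by mean CPM, next to Mir185 (501 CPM ± 5.30), Mir340 (495 CPM ± 4.51), Mir674 (486 CPM ± 41.9) and Mir676 (483 CPM ± 46.5). It therefore belonged to the moderately abundant miRNA genes of this tissue, far below the leading gene at 180672 CPM.

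Mir29c followed. It had 1061 counts in pup 1 and 1443 in pup 2, or 329.9 CPM (interval 310.3 to 350.3) and 394 CPM (374 to 415), with a mean of 362 CPM ± 45.5 (SD, n = 2). Here the intervals of the pups did not overlap, and pup 2 was again the higher. Mir29c ranked 139, between Mir328 (380.2 CPM ± 6.60) and Mir485 (379 CPM ± 15.9) above it and Mir3099 (359 CPM ± 63.0) and Mir92-1 (353 CPM ± 34.8) below it.

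The Mir29b genes had few counts. Mir29b-2 had 14 counts in pup 1 and 21 in pup 2, or 4.35 CPM (interval 2.38 to 7.30) and 5.74 CPM (3.55 to 8.77), with a mean of 5.04 CPM ± 0.979 (SD, n = 2). Mir29b-1 had 5 and 16 counts, or 1.55 CPM (0.505 to 3.63) and 4.37 CPM (2.50 to 7.10), with a mean of 2.96 CPM ± 1.99. For each gene the intervals of the pups overlapped. Of the 4 members, 3 reached 10 counts in both pups, the limit for calling a gene detected, as did 352 genes in all; Mir29b-1 did not, because of pup 1. Mir29b-2 ranked 328, beside Mir103-1, Mir1247, Mir3057 and Mir3058. Mir29b-1 ranked 362, beside Mir6951, Mir7226, Mir6971 and Mir547, so that both stood among genes of 2.63 to 5.11 CPM.

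**Figure D2:**
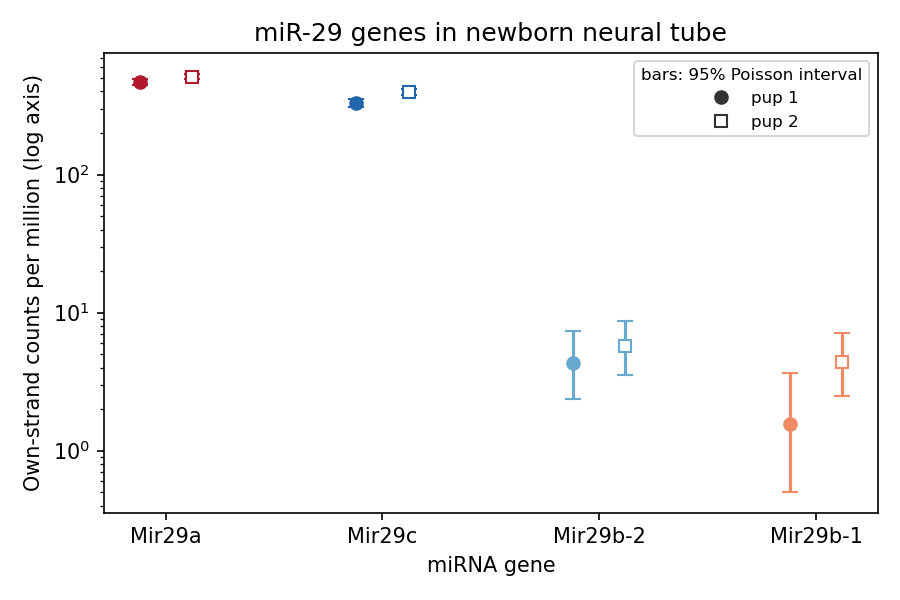
Own-strand CPM of the 4 miR-29 genes on a log axis, with filled circles for pup 1, open squares for pup 2 and bars for 95% Poisson intervals. Mir29a and Mir29c lie between 329.9 and 512 CPM and both Mir29b genes between 1.55 and 5.74 CPM.

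No read was counted on the opposite strand of any miR-29 gene in either pup. As a floor 3 counts were taken here in place of a Poisson interval, which is 0.933 CPM in pup 1 and 0.820 CPM in pup 2. Own-strand and either-strand counts of the 4 genes were therefore the same.

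The order of the members was set against the spread between the pups. Neighbours were called different where the mean of log2(CPM + 1) differed by more than the 95% normal limit of the SD pooled over detected genes of like abundance. Mir29a exceeded Mir29c by 0.44 on this log2 scale, against a limit of 0.41, and was the higher of them in 2 of 2 pups. The margin is small, and with the SD pooled over all detected genes the limit was 0.49 and the difference fell within it. Mir29c exceeded Mir29b-2 by 5.91 against a limit of 0.57. Mir29b-2 and Mir29b-1 differed by 0.70, just within a limit that also rounds to 0.70. That limit comes from genes with at least 10 counts in both pups. Mir29b-1, with 5 counts in pup 1, was not among them, so the limit may be too small for this pair. Per 100 bases of precursor the values were 559 CPM for Mir29a, 411 for Mir29c, 6.23 for Mir29b-2 and 4.17 for Mir29b-1. The precursors of Mir29a and Mir29c are equally long, and lengths of 71 to 88 bases differ too little to change the rest. This scaling is therefore no check of the order.

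The pairs on the 2 chromosomes were then compared as sums. The chromosome 6 pair had 1520 counts in pup 1 and 1891 in pup 2, or 473 and 517 CPM. The chromosome 1 pair had 1075 and 1464 counts, or 334 and 399.9 CPM. The chromosome 6 pair was thus 1.41 times the chromosome 1 pair in pup 1 (interval 1.31 to 1.53) and 1.29 times in pup 2 (1.21 to 1.38), a mean of 1.35 ± 0.0865 (SD, n = 2). The intervals excluded a ratio of 1 in each pup and overlapped between the pups. These intervals hold counting error only. With 2 pups an exact two-sided permutation test within pups cannot go below p = 0.5, so none was used. The ratios compare counts of different mature sequences. Whether such counts stand in the same proportion as the RNA amounts was not tested.

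The ratio of the pairs is nearly that of Mir29a to Mir29c, which was 1.43 in pup 1 (interval 1.32 to 1.55) and 1.30 in pup 2 (1.21 to 1.39). Each pair had 1 member with nearly all of its counts. Mir29b-1 made up 0.329% of the chromosome 6 pair in pup 1 and 0.846% in pup 2. Mir29b-2 made up 1.30% and 1.43% of the chromosome 1 pair. Within a pair, the counts of Mir29a were 303 and 117 times those of its neighbour Mir29b-1, and the counts of Mir29c 75.8 and 68.7 times those of Mir29b-2. Since uniquely placed reads leave out complete miR-29b-3p, these ratios do not measure how the members of a pair are processed, and the sums of the pairs lack their miR-29b.

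Of the counts assigned to a Mir29b gene, Mir29b-2 held 14 of 19 in pup 1 (73.7%, interval 48.8 to 90.9%) and 21 of 37 in pup 2 (56.8%, interval 39.5 to 72.9%). Both intervals include an equal split, so a difference between the 2 loci was not detectable at this depth. All 4 genes together had 2595 counts in pup 1 and 3355 in pup 2. That is 0.0807% (interval 0.0776 to 0.0838%) and 0.0916% (0.0886 to 0.0948%) of the own-strand counts, a mean of 0.0862% ± 0.00776 (SD, n = 2).

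The share of each gene was compared between the pups by an exact binomial test (two-sided) conditional on the library totals, with Benjamini-Hochberg adjustment over all 413 genes with at least 10 counts summed. This test compares 2 libraries and includes no variation between animals. Of the tested genes 40.9% were called, 25.7% as higher and 15.3% as lower in pup 2. All 4 miR-29 genes had higher values in pup 2, and 2 of them were called. The median log2 ratio over all tested genes was 0.04 here and -0.025 with TMM scaling. How many of all tested genes had higher values was not counted, so the shared direction is no result about the family. The 4 genes also lie as 2 close pairs and may not be independent of each other. Mir29c was 1.19-fold higher (log2 ratio 0.26, adjusted p = 4.2e-05, exact binomial test). Mir29a was 1.09-fold higher (log2 ratio 0.12, adjusted p = 0.039, exact binomial test). Mir29b-2 (log2 ratio 0.38, adjusted p = 0.66, exact binomial test) and Mir29b-1 (log2 ratio 1.40, adjusted p = 0.10, exact binomial test) were not called on their few counts.

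Among all tested genes, the ratio of Mir29c lay above 73.8% of them and that of Mir29a above 59.1%, with an overall median of 0.04. The ratios of the Mir29b genes, on few counts, lay above 79.7% (Mir29b-2) and 98.5% (Mir29b-1). The call of Mir29a depended on the scaling. With TMM scaling its log2 ratio was 0.05 and its adjusted p 0.46 by the exact binomial test, whereas Mir29c stayed called under every alternative tried (adjusted p up to 0.0039, exact binomial test). Over all genes, 106 calls were higher and 63 lower in pup 2 as deposited totals give them, against 77 and 89 with TMM and 92 and 79 with DESeq2 scaling. Of the 4 genes next to Mir29a in level, Mir676 was called higher, Mir674 lower, and Mir185 and Mir340 were not called. Of the 4 next to Mir29c, Mir92-1 was called higher, Mir3099 lower, and Mir328 and Mir485 were not called.

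**Figure D3:**
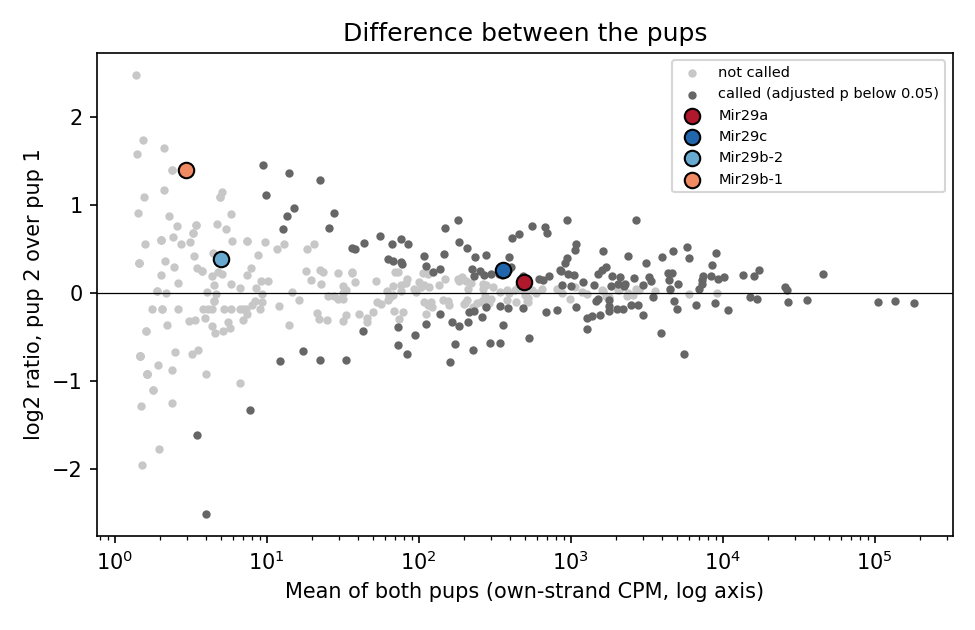
Log2 ratio of pup 2 over pup 1 against mean CPM (log axis) for the 413 tested genes, dark where the exact binomial test called a gene. Mir29c (0.26) and Mir29a (0.12) lie inside the cloud of genes of like abundance, and both Mir29b genes lie among genes of few counts, where ratios scatter widely.

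Called genes of the cell type marker lists are given for the same pups, beside 25.7% called higher and 15.3% called lower over all tested genes. The test calls smaller differences at higher counts. Of the 311 genes with at least 50 counts summed, 110 were called higher and 64 lower. Shares for genes of like abundance were not computed, so a larger called share in an abundant list is no result about that list. The 3 sensory ganglion genes, none of them at 0, summed to 3233 and 5392 CPM, and 3 of 3 were called higher in pup 2. These genes (Mir183, Mir96 and Mir182) belong to the same cluster, so their calls are not independent of each other. The 5 genes listed as astroglial were Mir23a, Mir23b, Mir26b, Mir181a-1 and Mir181a-2. None was at 0, and they summed to 27614 and 34149 CPM, with 3 called higher and 1 lower. Whether these genes are particular to astroglia was not tested, and Mir26b is also in the list of maturing neural tissue below. Their sum is therefore no measure of astroglia. Of the neuronal genes 5 of 8 tested were called higher and 0 lower. Of the 6 mesenchymal genes tested 4 were called higher and 0 lower, of the 3 oligodendrocyte genes (1854 and 2220.3 CPM, none at 0) 2 and 0, and of the 4 measured blood genes (489.98 and 575 CPM, none at 0) 2 and 0. Of the 2 striated muscle genes tested 1 was called higher. Endothelial Mir126a was called lower, as was Mir122 of hepatocytes (104 and 64.2 CPM). The part of these values in the ratios of Mir29a and Mir29c was not tested.

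Like miR-29, a list of other miRNA genes is known to become more abundant as neural tissue matures, among them the let-7 family, miR-124, miR-128 and miR-137. Of its 28 measured members 26 were detected, with none at 0, and the detected ones had a median of 986 CPM, above both Mir29a and Mir29c. Its highest members were Mirlet7g (46050 CPM ± 4761), Mirlet7i (25594 CPM ± 815) and Mir137 (16076 CPM ± 1484). Of the 27 tested members 19 were called higher and 1, Mirlet7b, lower in pup 2. Over all tested genes 25.7% were called higher and 15.3% lower. The test calls smaller differences at higher counts, and shares for genes of like abundance were not computed. The count is therefore no result about the list. The median log2 ratio was 0.25 in the list and 0.04 over all tested genes. The ratio of Mir29c (0.26) stood near the list median and that of Mir29a (0.12) below it. Several list members are copies that share a mature arm, so they are not independent of each other. Several also stand in the neuronal, oligodendrocyte and astroglial marker lists, so these calls partly repeat those given above. Both Mirlet7e and Mirlet7f-1 were not analysed here.

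The contrasting list held miRNA genes of proliferating progenitors and stem cells, the miR-17-92 cluster with its relatives and the miR-290 and miR-302 clusters. Of its 24 measured members 18 were detected, with a median of 112 CPM, below Mir29a and Mir29c; Mir367 and Mir290a were at 0 in both pups. Its highest members were Mir17 (5069 CPM ± 240.2), Mir106b (2988 CPM ± 369) and Mir93 (2578 CPM ± 30.5). Of the 18 tested, 6 were called higher and 3 lower in pup 2 (3 and 4 with TMM scaling), with a median log2 ratio of 0.10. These shares are near the 25.7% higher and 15.3% lower over all tested genes, and the count is no result about the list.

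The last list held genes that are known, as miR-29 is, from connective tissue and fibrosis. All 14 were measured and 11 detected, with a median of 457 CPM, between Mir29a and Mir29c; Mir133a-1 and Mir133a-2 were at 0 in both pups. Its highest members were Mir30e (17485 CPM ± 2254), Mir30a (8448 CPM ± 808) and Mir143 (6977 CPM ± 144.9), the last a gene of smooth muscle. Of the 11 tested, 7 were called higher and none lower in pup 2 (6 and 2 with TMM scaling), with a median log2 ratio of 0.13. Over all tested genes 25.7% were called higher and 15.3% lower (77 and 89 of 413 genes with TMM scaling). Shares for genes of like abundance were not computed, so this count too is no result about the list. The 7 mesenchymal marker genes are all in this list as well, so its calls partly repeat theirs.

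How the Mir29b genes compare with others of the same layout was described across the 916 measured genes with an annotated mature arm in RefSeq. Each arm was searched, on both strands, in all annotated miRNA precursors. In 814 genes, Mir29a and Mir29c among them, every arm listed there occurred at 1 locus only. Of these, 272 (33.4%) were detected, with a median of 213 CPM among those detected. The class rests on the annotation and also holds genes with copies, such as Mir1a-1 and Mirlet7a-2, so shared arms are not fully kept out of it. In 56 genes, Mir29b-1 and Mir29b-2 among them, 1 arm occurred at several loci and the other at 1 locus; 40 of them (71.4%) were detected, with a median of 105 CPM. Mir29b-2 ranked 39 and Mir29b-1 41 by mean CPM among these 56 genes, of which 49 had any count. The Mir29b genes were thus in the lower part even of the genes with the same layout of arms. In 46 genes every arm occurred at several loci, and 8 of these were detected. Levels of different genes within this comparison also differ for reasons other than the layout of arms, which were not separated.

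**Figure D4:**
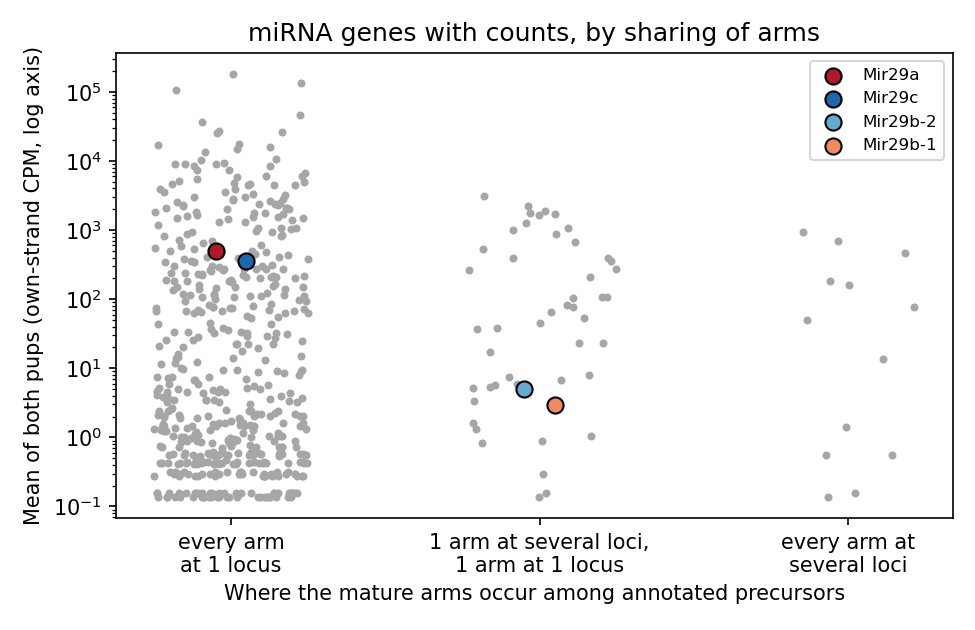
Mean own-strand CPM (log axis) of measured miRNA genes with any count, by whether their mature arms occur at 1 or several annotated loci, with the miR-29 genes in colour. Mir29a (492 CPM) and Mir29c (362 CPM) lie in the upper range of the first class; Mir29b-2 (5.04 CPM) and Mir29b-1 (2.96 CPM) lie in the lower part of the second, whose detected genes have a median of 105 CPM.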

How the data were processed

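The authors deposited raw counts of uniquely placed reads per miRNA gene and library, on either, the own and the opposite strand; per the labels the build was mm10, and the deposited text names the annotation GENCODE M4. Which aligner and read counter they used is not given in the sources used here. Read classes that name no gene (49.4% and 49.2% of reads) stayed out of totals. Symbols and positions came from GENCODE M21 (GRCm38), matched by Ensembl identifier for 1894 of 1973 genes; mature and precursor sequences came from RefSeq (GRCm38.p6). Both pups are littermates, so the spread is that between these libraries.

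CPM is 1000000 times the own-strand count over its total. Log2 ratios had 0.5 added to each count. The spread was pooled within 4 classes of abundance. With 1 library per pup no model across replicates could be fitted; the exact binomial test was checked on simulated data. Named genes are the 4 members, the 2 genes above and below each in mean CPM, and the 3 highest members and those at 0 of each list; genes of cell type markers and of the layout comparison were named after their values were seen. Members and lists were chosen with earlier results of these data known. Alternatives were TMM (edgeR) and DESeq2 scaling, other count minimums, pseudocounts, strands and totals. Software comprised Python 3.11.15 with scipy 1.17.1 and matplotlib 3.10.9, and R 4.3.3 with edgeR 4.0.16 and DESeq2 1.42.0.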

Additional observations from a re-analysis of the deposited data

How the results depend on the processing

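Of 72 values under alternatives, 55 gave the same call or lay within 1 SD of the reported value, and 0 were found to change direction. The 55 include the values with 1 pup left out, which lie within 1 SD by construction. A change of direction was looked for only in the log2 differences and log2 ratios, not in levels, shares, the pair ratio or numbers of calls. Without Mir10b, the most abundant gene, in the total, Mir29a stood at 599.8 CPM, Mir29c at 442 CPM, Mir29b-2 at 6.15 CPM and the family share at 0.105%, by construction of the smaller total. Against all reads of the library the share was 0.0437%, again by construction. Between the pups, 1 miR-29 gene in place of 2 was called with TMM scaling (Mir29a: log2 ratio 0.052, adjusted p = 0.46), DESeq2 scaling (0.077, 0.23), no count minimum (0.12, 0.064) and the total without Mir10b (0.10, 0.12), all by the exact binomial test; the cause was not tested. Mir29a against Mir29c (0.44) fell within the limit of 0.49 when the SD was pooled over all detected genes. Mir29b-2 against Mir29b-1 passed its limit with a pseudocount of 0.1 CPM (0.91), either-strand counts (0.69) and the SD pooled over all detected genes (0.70), so that call depends on these settings. Each limit comes from detected genes, and Mir29b-1 was not detected, so passing it shows no difference between these genes. Leaving out 1 of 2 pups moves a mean by less than its SD by construction and shows no stability. No paired analysis was possible because there is 1 group. Depth limits the Mir29b genes, with 21 and 35 counts over both pups.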

Other observations

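Among the 56 genes with 1 arm at several loci and 1 at 1 locus, levels ran from no count in 7 genes to 3126 CPM for Mir128-1. Mir181a-1 (2204 CPM), Mirlet7f-2 (1872 CPM) and Mir125b-2 (1787 CPM) also stood high. Genes near the Mir29b genes in level included Mir26a-1 (7.95 CPM), Mir181b-1 (7.46 CPM), Mir3070a (6.69 CPM), Mir19b-1 (5.88 CPM) and Mir103-1 (5.11 CPM). In some families the copies differed widely: the counts of Mir181b-2 were 86.3 times those of Mir181b-1 in pup 1 and 95.1 times in pup 2, and those of Mir103-2 were 16.2 and 7.77 times those of Mir103-1. In others the copies had closer means, such as Mir450-1 (5.72 CPM) and Mir450-2 (5.44 CPM), or Mir7-1 (267 CPM) and Mir7-2 (213 CPM). How many families fell on each side was not counted. Mir29b-2 had 2.80 times the counts of Mir29b-1 in pup 1 and 1.31 times in pup 2. These genes were chosen after their values were seen, and no test was made.

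The last 6 bases of miR-29b-3p, AGUGUU, are known from human cells as a signal that carries this miRNA into the nucleus. Of the 1679 mature miRNAs in RefSeq, 2 ended in these bases (0.119%), miR-29b-3p and miR-92b-5p. Neither miR-29a-3p nor miR-29c-3p ended in them. The counts hold no information on where in the cell the miRNA was.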
